A study of Mus musculus with 8 samples.

Results

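The secreted Wnt antagonists are 10 mouse genes, Sfrp1, Sfrp2, Sfrp4, Sfrp5, Frzb, Dkk1, Dkk2, Dkk3, Wif1 and Notum, chosen by gene name among the 22053 rows of a table of protein-coding genes. All 10 were present, each in 1 row. Bulk RNA of 8 libraries was measured, all of them WT mice of postnatal day 10: 4 of candidate vertebral skeletal stem cells from the spine (vSSC) and 4 of long bone skeletal stem cells from femur and tibia (lbSSC). Each group held 2 male and 2 female libraries. One gate, CD31-TER119-CD45-Thy-6C3-CD200+CD105-, was used for both sources, so each group is a population defined by surface markers. Levels are given in FPKM, the read fragments of a gene relative to its length and to all fragments of the library, so that different genes can be set side by side.

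Wnt proteins are lipid-modified secreted signals that bind Frizzled receptors together with the coreceptors Lrp5 and Lrp6 and so stabilise beta-catenin, which drives bone formation and restrains cartilage fate. Antagonists act outside the cell in several ways. Secreted Frizzled-related proteins (sFRPs, including Frzb, which is also called Sfrp3) and Wif1 bind Wnt proteins themselves, Dickkopf proteins Dkk1 and Dkk2 bind Lrp5 and Lrp6, and Notum is an enzyme that removes the lipid from Wnt proteins. Dkk3 is a divergent Dickkopf that is not known to act on Lrp5 and Lrp6 in the way Dkk1 does.

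Of the secreted antagonists, 4 sFRP genes and Dkk3 were lower in vertebral than in long bone cells, Notum was higher, and Wif1, the most abundant of all, did not pass the test. A gene was tested where 4 or more of the 8 libraries reached an FPKM of 1, which held for 9 of the 10. Of these, 5 fell in vSSC (Sfrp1, Sfrp2, Sfrp5, Frzb and Dkk3), 1 rose (Notum) and 3 did not pass (Sfrp4, Dkk1 and Wif1). Each difference given is the vSSC mean less the lbSSC mean of log2(FPKM + 1), ± SE, which makes the change of a gene near 0 look smaller than it is. Adjusted p-values come from limma over all genes tested (n = 4 per group), with a threshold of 0.05. Among all 10729 genes tested 23.5% were called, 14.3% higher and 9.17% lower, with a median difference of 0.08. The median of the 9 antagonists was -0.79. The libraries of both groups did not overlap in 7 of the 10 genes, 6 lower and 1 higher in vSSC, against 25.8% of all genes tested (9.99% lower and 15.8% higher). The 6 include Dkk2, which was not tested, while the shares are over tested genes alone. Of the antagonists 4 fell by at least 1 (Sfrp1, Sfrp2, Sfrp5 and Dkk3) and 1 rose by at least 1 (Notum), against 2.75% and 1.96% of all genes tested. In bulk RNA of a sorted population, fewer cells of a type and less RNA per cell cannot be told apart.

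**Figure D1:**
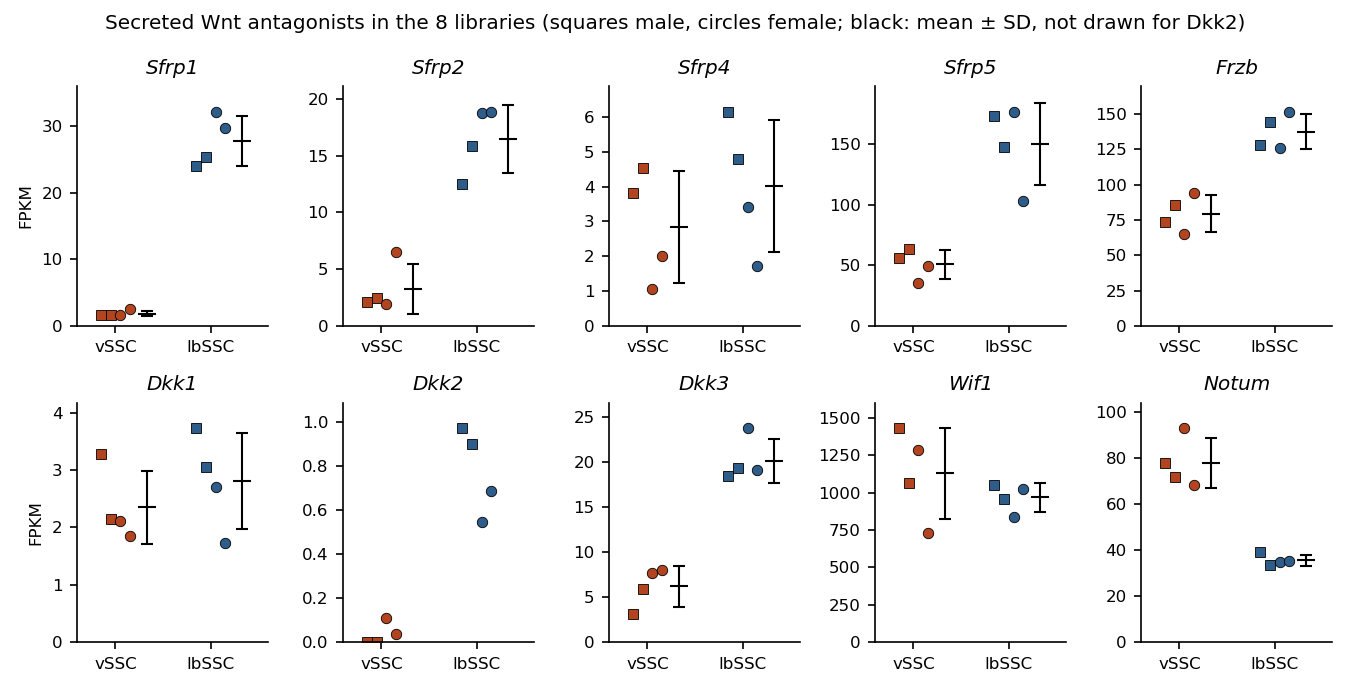
FPKM of the 10 secreted Wnt antagonists in each library, vSSC in red at the left of each panel and lbSSC in blue at the right, each panel with its own linear axis from 0. Squares are male and circles female libraries, and the black bar gives mean ± SD (n = 4, not drawn for Dkk2). The groups are apart in Sfrp1, Sfrp2, Sfrp5, Frzb, Dkk2, Dkk3 and Notum, and overlap in Sfrp4, Dkk1 and Wif1.

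The promoters of the antagonists were read for motifs of Wnt-responsive and TATA-type starts. RefSeq windows of 300 bases on GRCm38.p6, with 250 bases before the annotated start, were matched for 6 of the 10 genes, Sfrp2, Sfrp5, Frzb, Dkk1, Dkk2 and Wif1. The motif of the TCF and LEF factors that carry the Wnt signal was searched on both strands as CTTTGAA or CTTTGAT or CTTTGTA or CTTTGTT, and the TATA box as TATAAA on the strand of the gene. Shown are the stretch of Dkk1 that holds both TCF and LEF matches, the only ones among the 6 windows, and the 150 bases before the start of Dkk2, with a TATA match, and of Sfrp2, the tested gene with the largest site difference among the 6. Capitals mark the matches, and each sequence runs 5′ to 3′ on the strand of its gene.
Dkk1 (chr19:30549588-30549613, minus strand): CTTTGAAatcccatcccggCTTTGTT
Dkk2 (chr3:132085142-132085291, plus strand): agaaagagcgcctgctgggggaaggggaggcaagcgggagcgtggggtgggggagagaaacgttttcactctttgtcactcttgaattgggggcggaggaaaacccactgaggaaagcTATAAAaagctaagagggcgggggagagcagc
Sfrp2 (chr3:83766171-83766320, plus strand): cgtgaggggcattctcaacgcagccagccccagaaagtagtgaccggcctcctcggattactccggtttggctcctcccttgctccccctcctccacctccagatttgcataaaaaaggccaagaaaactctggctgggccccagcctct
In Dkk1 the matches lay at -117 to -111 and at -98 to -92 from the RefSeq start, and a TATA match, outside the printed bases, at -54 to -49. In Dkk2 the TATA match lay at -32 to -27. GENCODE M21 places the start of Dkk1 169 bases further upstream, so these bases lie within its annotated gene. Of all 32851 RefSeq windows, 16.9% held a TCF and LEF match and 8.3% a TATA match. The ratio of observed to expected CpG was 0.33 in the Dkk1 window, the lowest of the 6, and 0.85 in that of Wif1, the highest, against a median of 0.38 over all windows. These matches are descriptions of letters and say nothing of binding in these cells.

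The summed FPKM of a library was 517314 to 571869 in vSSC and 460302 to 521489 in lbSSC. Fragment counts are not used here, so the counting error of a single value is unknown. Cd200, the gene of the positive sorting marker, was at 85.1 to 133 FPKM in vSSC and 84.2 to 143 in lbSSC, and Pecam1, Ptprc and Thy1 of the negative gate were below 1 in all libraries. Below that level, Ptprc was at 0.331 to 0.949 FPKM in vSSC and 0.0250 to 0.0688 in lbSSC. Thy1 was at 0 to 0.212 FPKM in vSSC and 0.165 to 0.600 in lbSSC, and Pecam1 at 0.117 to 0.255 and 0.0142 to 0.169. Eng (CD105) averaged 0.572 ± 0.240 FPKM in vSSC, against 0.926 ± 0.168 FPKM in lbSSC, and Enpep (6C3) averaged 0.319 ± 0.157 FPKM in vSSC, against 1.22 ± 0.438 FPKM in lbSSC. Chondrocyte genes such as Col2a1 were high at both sites, with a summed level of 13813 to 23009 FPKM in vSSC and 16258 to 26742 in lbSSC for 7 genes. Of the 7, 1 was higher in vSSC (Hapln1 at 0.91 ± 0.12) and 6 were not called. The 8 osteoblast genes summed to 928 to 1395 FPKM in vSSC and 1036 to 2332 in lbSSC. Of these 8, 1 was higher (Sp7 at 0.61 ± 0.12), 2 were lower (Bglap at -1.55 ± 0.37 and Dmp1 at -1.58 ± 0.20) and 5 were not called. Endothelial and muscle markers summed to at most 0.149 FPKM in any library, with Myod1 at 0 in all. Of the 6 blood markers Cd68 and Csf1r were below 1 in all libraries. Itgam was at 0.161 to 0.507 FPKM in vSSC and 0.110 to 1.69 in lbSSC. Ly6g was at 0 to 1.29 FPKM in vSSC and 0 to 0.330 in lbSSC. The sum with the haemoglobin genes was 3473 to 4764 FPKM in vSSC and 3800 to 7718 in lbSSC. Synovial and joint genes summed to 275 to 515 FPKM in vSSC and 289 to 810 in lbSSC, with 1 of 5 lower (Gdf5), and hypertrophic chondrocyte genes to 485 to 535 FPKM in vSSC and 438 to 661 in lbSSC, with 2 of 4 higher (Ihh and Panx3) and 1 lower (Col10a1). The 5 marrow stroma genes summed to 16.5 to 25.9 FPKM in vSSC and 40.5 to 64.1 in lbSSC, ranges that do not overlap. Of these, 4 of 5 were lower (Cxcl12 at -1.42 ± 0.22, Adipoq, Pdgfrb and Kitl). Tendon genes summed to 1421 to 2154 FPKM in vSSC and 1935 to 3246 in lbSSC, ranges that overlap. Most of that sum was Fmod, which averaged 1663 FPKM in vSSC and 2557 in lbSSC. Of the 6 tendon genes 3 were lower (Kera, Tnmd and Fmod) and 3 were not called (Scx, Mkx and Thbs4). Of Schwann cell markers, Mbp was higher in vSSC, at 2.02 to 5.95 FPKM in vSSC and 0.495 to 0.980 in lbSSC (1.69 ± 0.26, adjusted p = 0.000854 from limma), and Sox10, which was not tested, was at 0.415 to 1.44 FPKM in vSSC and 0.216 to 0.880 in lbSSC. The share of FPKM held by ribosomal protein genes was 18.4 to 21.5% in vSSC and 15.7 to 18.5% in lbSSC. These ranges barely overlap, so a fit with this share as a term separates site and share poorly. The part of the marker lists in these differences was not tested.

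Sfrp1, which binds Wnt proteins through a domain like that of Frizzled receptors, had the largest difference of the family. It lies on chromosome 8 from 23411502 to 23449632 (GRCm38, plus strand). It was at 1.66, 1.67, 1.57 and 2.48 FPKM in the vSSC libraries, against 24.1, 25.5, 32.2 and 29.7 FPKM in the lbSSC libraries. The groups lay far apart. The mean was 1.84 ± 0.425 FPKM in vSSC, against 27.9 ± 3.77 in lbSSC (SD, n = 4 each), a ratio of means of 0.0661 and a difference of -3.35 ± 0.15 (adjusted p = 9.53e-08 from limma), the 8th largest decrease among the genes tested.

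Sfrp2, another Wnt-binding sFRP, had the next largest difference of the tested antagonists. It lies on chromosome 3 from 83766321 to 83774316. It was at 2.07, 2.48, 1.91 and 6.53 FPKM in vSSC, against 12.5, 15.9, 18.8 and 18.9 FPKM in lbSSC. All vSSC libraries were below all lbSSC libraries, and vSSC replicate 4 stood above the other vSSC libraries. The difference was -2.14 ± 0.27 (adjusted p = 0.000259 from limma), and -2.46 ± 0.17 without that library. With the ribosomal protein share as a term it was -1.24 ± 0.28 (adjusted p = 0.0269). Sfrp2 overlaps the antisense gene Gm26771, and the library chemistry does not mark the strand, so reads of both cannot be told apart.

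Sfrp5 and Frzb made up most of the sFRP transcripts at both sites. Sfrp5, an antagonist best known from fat tissue and the anterior endoderm, was at 56.0, 63.6, 35.5 and 49.1 FPKM in vSSC, against 174, 147, 177 and 103 FPKM in lbSSC. The lowest lbSSC library was well above the highest vSSC library, and the difference was -1.54 ± 0.20 (adjusted p = 0.000305 from limma). Frzb, an antagonist found in cartilage that is also known as a Wnt-binding protein of joints, was at 73.7, 85.6, 64.8 and 94.3 FPKM in vSSC, against 128, 144, 126 and 152 FPKM in lbSSC. Its groups did not overlap either, at a smaller distance, and the difference was -0.79 ± 0.13 (adjusted p = 0.00135 from limma). With the ribosomal protein share as a term in the fit, the Frzb difference was -0.51 ± 0.16 and its call was lost (adjusted p = 0.0939). Sfrp5 lies on chromosome 19 from 42197971 to 42202252 and Frzb on chromosome 2 from 80411970 to 80447625, both on the minus strand.

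Sfrp4, which is known for its role in cortical bone, was the one sFRP that did not pass. It lies on chromosome 13 from 19623175 to 19632821. It was at 3.80, 4.52, 1.05 and 1.99 FPKM in vSSC, against 6.15, 4.80, 3.40 and 1.72 FPKM in lbSSC, so the groups overlapped widely. The difference was -0.40 ± 0.34 (95% interval -1.15 to 0.35, adjusted p = 0.415 from limma). The interval holds both no change and a decrease of the size seen in Frzb. Without single libraries it ran between -0.67 (without lbSSC replicate 4) and -0.13 (without vSSC replicate 3), and neither passed.

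The sum of the 5 sFRP genes was 138.6 ± 24.2 FPKM in vSSC and 336.2 ± 22.0 in lbSSC (SD, n = 4 each). The makeup of that sum also differed. Frzb held 57.7 ± 4.35% of it in vSSC and 41.2 ± 6.45% in lbSSC, and Sfrp1 held 1.34 ± 0.254% in vSSC and 8.32 ± 1.27% in lbSSC. Sfrp5 held 36.7 ± 4.55% in vSSC and 44.3 ± 7.60% in lbSSC, with single libraries that overlap, at 31.8 to 40.8% in vSSC and 33.9 to 50.4% in lbSSC.

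Of the Dickkopf genes, Dkk3 fell and Dkk1 did not pass. Dkk3, on chromosome 7 from 112116017 to 112159057, was at 3.18, 5.88, 7.74 and 8.07 FPKM in vSSC, against 18.4, 19.3, 23.8 and 19.1 FPKM in lbSSC. All vSSC libraries lay below all lbSSC libraries, and the difference was -1.61 ± 0.22 (adjusted p = 0.000430 from limma). With the ribosomal protein share as a term it was -1.24 ± 0.33 and the call was lost (adjusted p = 0.0587). Dkk1, on chromosome 19 from 30545863 to 30549665 and the best known Lrp5 and Lrp6 inhibitor and itself a target of Wnt signalling, was at 3.28, 2.15, 2.11 and 1.86 FPKM in vSSC, against 3.73, 3.06, 2.70 and 1.73 FPKM in lbSSC. The groups overlapped, and the difference was -0.17 ± 0.20 (95% interval -0.60 to 0.26, adjusted p = 0.548 from limma). It ran between -0.32 (without lbSSC replicate 4) and -0.059 (without lbSSC replicate 1), and was -0.65 ± 0.26 with the ribosomal protein share as a term, and none of these passed.

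Dkk2, which acts as an Lrp5 and Lrp6 ligand and is known from osteoblast maturation, was near the lower end of what was measured at both sites. It lies on chromosome 3 from 132085292 to 132180304. It was listed at 0, 0, 0.111 and 0.0374 FPKM in vSSC, against 0.971, 0.901, 0.545 and 0.685 FPKM in lbSSC. All lbSSC libraries lay above all vSSC libraries, although none reached an FPKM of 1, so Dkk2 was outside the tested genes. By an exact two-sided permutation test over all 70 assignments of the libraries, the difference of -0.77 had p = 0.0286, the smallest this design allows. With no filter on low values the difference had an adjusted p of 0.00130 by limma. The size of this difference depended on the pseudocount, with -2.72 at 0.1 and -4.80 at 0.01.

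Wif1, a Wnt-binding protein made by cartilage and bone cells, was the most abundant antagonist in every library. It lies on chromosome 10 from 121033960 to 121100650, and its mean ranked 82nd of all rows in vSSC and 78th in lbSSC. It was at 1429, 1065, 1282 and 733 FPKM in vSSC, against 1048, 959, 838 and 1022 FPKM in lbSSC. The vSSC libraries enclosed the lbSSC range on both sides, with vSSC replicate 4 the lowest of all 8. The difference was 0.18 ± 0.19 (95% interval -0.23 to 0.59, adjusted p = 0.500 from limma), and 0.37 ± 0.14 without vSSC replicate 4 (adjusted p = 0.0664). Its sign was not stable: it was -0.071 after quantile normalization, -0.34 with the ribosomal protein share as a term and -0.12 without vSSC replicates 1 and 3.

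Marker sums also varied among the vSSC libraries, in different directions. The summed FPKM of 8 osteoblast genes was 1395, 1053, 1292 and 928 in vSSC replicates 1 to 4, the same order of libraries as for Wif1. Spp1 held the largest part of that sum but had another order, at 680, 506, 736 and 408 FPKM. Of the same list Bglap had the order of Wif1, and Sp7 had the reverse order, at 41.5, 45.4, 43.1 and 49.0 FPKM. Ibsp, Bglap2, Dmp1, Phex and Alpl had neither order. The chondrocyte sum, at 13813, 20334, 13977 and 23009 FPKM, and the tendon sum, at 1421, 1956, 1488 and 2154 FPKM, also had the reverse order of Wif1. Neither order was seen in the hypertrophic chondrocyte sum (535, 511, 485 and 523 FPKM) or the synovial and joint sum (341, 515, 275 and 347). The same held for the marrow stroma sum (25.9, 23.8, 18.6 and 16.5 FPKM) and the blood sum (4764, 4332, 3662 and 3473). In lbSSC the osteoblast sum was 2332, 1835, 1534 and 1036 FPKM, an order that differed from that of Wif1 in lbSSC replicate 4. The part of these lists in the level of Wif1 was not tested.

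Notum, the enzyme that inactivates Wnt proteins by removing their lipid, was the one antagonist that rose. It lies on chromosome 11 from 120653788 to 120661175 on the minus strand. It was at 77.8, 71.7, 92.9 and 68.2 FPKM in vSSC, against 39.0, 33.5, 34.7 and 35.2 FPKM in lbSSC. The 4 vSSC libraries were all above the 4 lbSSC libraries, and the lbSSC values lay close together. The mean was 77.6 ± 10.9 FPKM in vSSC, against 35.6 ± 2.39 in lbSSC (SD, n = 4 each), a ratio of means of 2.18 and a difference of 1.10 ± 0.12 (adjusted p = 7.59e-05 from limma). Notum overlaps the antisense genes Notumos and Myadml2os, whose reads cannot be told apart from its own without strand.

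**Figure D2:**
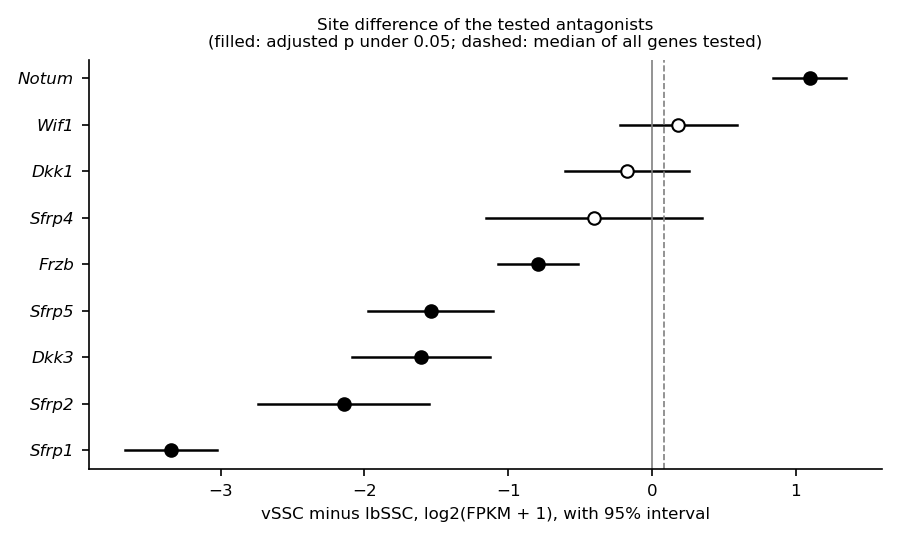
Site difference of the 9 tested antagonists in log2(FPKM + 1), vSSC minus lbSSC, with 95% intervals from limma. Filled points passed an adjusted p of 0.05, and the dashed line is the median of all genes tested (0.08). Only Notum lies to the right with an interval clear of 0, and Sfrp1 lies furthest to the left at -3.35.

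The mean total of all 10 antagonists was close at both sites, while the total without Wif1 was lower in vSSC. The total was 1352 ± 294 FPKM in vSSC and 1362 ± 82.3 in lbSSC, and the spread within vSSC was far larger than the difference of means. Without Wif1, the remaining 9 summed to 222, 238, 208 and 233 FPKM in vSSC, against 406, 395, 419 and 362 FPKM in lbSSC. Wif1 held 82.6 ± 4.94% of the total in vSSC and 70.8 ± 3.05% in lbSSC. Notum held 5.88 ± 1.01% in vSSC and 2.61 ± 0.131% in lbSSC, a larger share in every vSSC library. Sums are given as a description, with no test.

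**Figure D3:**
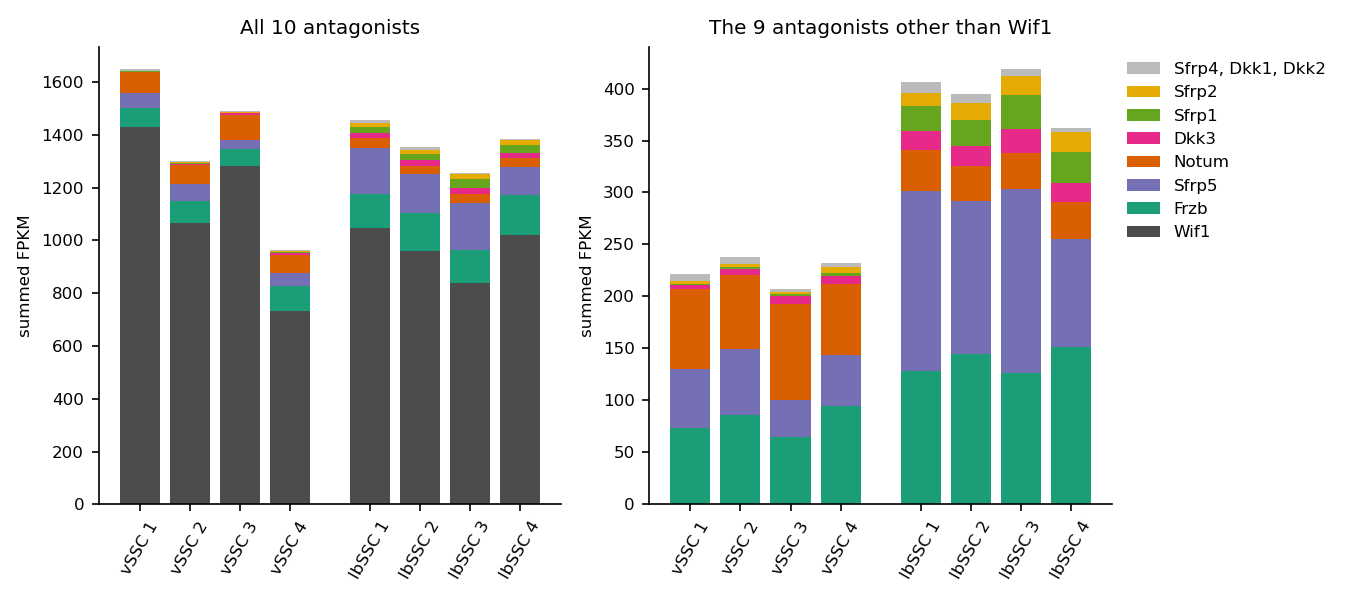
Summed FPKM of the antagonists per library, stacked by gene, with all 10 at the left and the 9 other than Wif1 at the right, each axis from 0. In the right panel the vSSC bars reach 208 to 238 FPKM and the lbSSC bars 362 to 419 FPKM, with the Notum part larger and the Frzb and Sfrp5 parts smaller in vSSC.

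The order of the levels differed between the sites. In vSSC the order of means was Wif1, Frzb, Notum, Sfrp5, Dkk3, Sfrp2, Sfrp4, Dkk1, Sfrp1 and Dkk2. Frzb and Notum overlapped there, and so did each neighbouring pair in the run from Dkk3 to Sfrp1. In lbSSC the order was Wif1, Sfrp5, Frzb, Notum, Sfrp1, Dkk3, Sfrp2, Sfrp4, Dkk1 and Dkk2. There Sfrp5 overlapped with Frzb, Dkk3 with Sfrp2 and Sfrp4 with Dkk1. Sfrp1 thus stood 9th in vSSC and 5th in lbSSC.

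For each antagonist that was called with a difference of at least 1 in size, the other genes with the closest pattern over the 8 libraries were found by the root mean square difference of centred log2 values. This distance includes the site difference, so genes with a similar site difference come out close. The median gene lies far off largely because it lacks that difference. The closest to Sfrp1 were Bpifb1 (0.29) and Otor (0.30), where the median gene was at 1.74. The closest to Sfrp2 were Gm525 (0.20) and the lysyl oxidase Loxl1 (0.25), against a median of 1.22. The closest to Sfrp5 were Adipoq, which encodes the adipocyte hormone adiponectin (0.22), and Ermap (0.23), against a median of 0.88. The closest to Dkk3 were Cpxm2 (0.19) and Enc1 (0.22), against a median of 0.94. Fam180a (0.09) and the chemokine-scavenging receptor Ackr2 (0.10) were closest to Notum, against a median of 0.56. Fam180a was at 493.8 ± 63.9 FPKM in vSSC, against 230.8 ± 20.8 in lbSSC, and Adipoq at 0.547 ± 0.528 in vSSC and 3.62 ± 1.55 in lbSSC. Otor averaged 0.252 ± 0.195 FPKM and Gm525 0.265 ± 0.530 in vSSC, and Ackr2 0.273 ± 0.131 in lbSSC. Near 0 the scale of log2(FPKM + 1) makes differences between libraries look smaller, which also shortens these distances.

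Other secreted or membrane inhibitors of Wnt signalling were read from a list of 12 genes in the table. Of its 6 tested genes, 5 were lower in vSSC and none higher (median -0.81). Trabd2b, a protease that cleaves Wnt proteins, averaged 4.66 ± 1.22 FPKM in vSSC, against 11.2 ± 3.04 FPKM in lbSSC (-1.10 ± 0.20). Apcdd1, a membrane inhibitor of Wnt, differed by -1.06 ± 0.18, Shisa2, which holds Frizzled receptors inside the cell, by -0.74 ± 0.10, and Igfbp4 by -0.87 ± 0.13. Sostdc1, a secreted Lrp ligand, was the fifth (-0.73 ± 0.24, adjusted p = 0.0477 from limma). Sost, the antagonist of mature osteocytes, was below 1 FPKM in all libraries and Dkk4 was listed at 0 in all.

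Wnt proteins bind Frizzled receptors and the coreceptors Lrp5 and Lrp6, and Dkk1 and Dkk2 bind these coreceptors. Of 9 tested Frizzled receptors 5 fell and 1 rose (median -0.44). Fzd9, the most abundant, averaged 85.7 ± 12.8 FPKM in vSSC, against 124 ± 12.2 FPKM in lbSSC (-0.53 ± 0.13), and Fzd7 differed by -0.44 ± 0.10. Fzd4, the one that rose, averaged 5.38 ± 0.570 FPKM in vSSC, against 2.11 ± 0.294 FPKM in lbSSC (1.04 ± 0.14). Of 7 tested coreceptors and Dickkopf receptors 2 fell, Lrp5 (-1.17 ± 0.20) and Lrp6 (-0.50 ± 0.16), and none rose (median -0.38). Kremen1, another receptor of Dkk1, averaged 4.27 ± 0.415 FPKM in vSSC, against 4.93 ± 0.691 FPKM in lbSSC, and did not pass (adjusted p = 0.411 from limma).

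Of 5 tested Wnt ligands, Wnt11 rose (0.72 ± 0.21), Wnt9a fell (-0.61 ± 0.17) and 3 did not pass (median 0.12). The most abundant ligand, Wnt5b, averaged 31.7 ± 2.18 FPKM in vSSC, against 24.6 ± 7.41 FPKM in lbSSC, and was not called (adjusted p = 0.125 from limma). Among lipidation, release and glypican genes, 3 of 6 fell and 1 rose (median -0.44), with the glypicans Gpc4 at -1.19 ± 0.14, Gpc6 at -0.86 ± 0.15 and Gpc3 at 0.60 ± 0.17. Porcn, which attaches the lipid that Notum removes, did not pass (-0.31 ± 0.17). Of 4 tested R-spondins and receptors, Rspo3 (1.58 ± 0.16) and Lgr4 (0.64 ± 0.11) rose and Znrf3 (-0.56 ± 0.18) fell (median 0.14).

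Wnt target and feedback genes moved both ways, with 3 of 9 tested lower and 1 higher (median -0.32). Axin2, the feedback gene most used as a readout, averaged 2.16 ± 0.350 FPKM in vSSC, against 2.40 ± 0.454 FPKM in lbSSC (-0.10 ± 0.16, adjusted p = 0.668 from limma). The feedback inhibitor Nkd1 averaged 9.78 ± 0.726 FPKM in vSSC, against 9.68 ± 0.488 FPKM in lbSSC. Tnfrsf19 (-1.35 ± 0.18) and Wisp1 (-1.15 ± 0.13) fell, and Ccnd1, a cell cycle gene with many inputs, rose (1.18 ± 0.14).

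**Figure D4:**
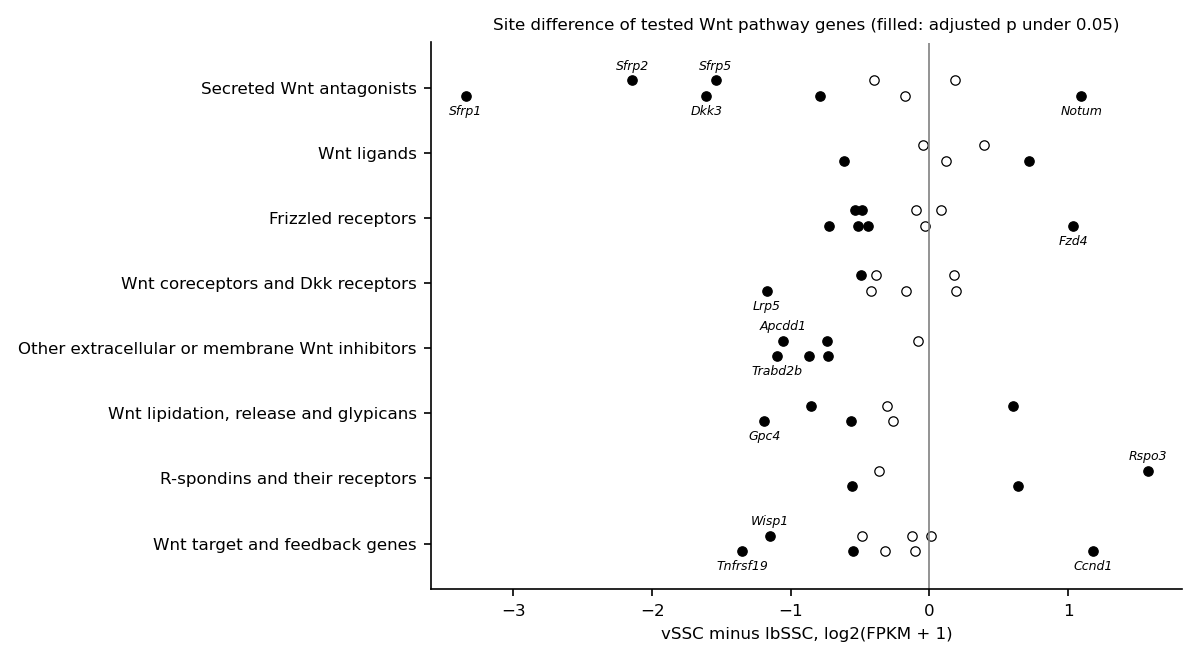
Site difference of every tested gene of the antagonists and of 7 further Wnt pathway lists in log2(FPKM + 1), vSSC minus lbSSC, 1 point per gene. Filled points passed an adjusted p of 0.05, and names are given for those of at least 1 in size. Sfrp1 and Sfrp2 lie furthest to the left, at -3.35 and -2.14, and Rspo3 furthest to the right at 1.58.

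Between the sexes no antagonist was called after adjustment, and 5 of all genes tested were (0.0466%, of which 0.0373% higher in males and 0.00932% lower), by limma with site as a covariate. At an unadjusted p under 0.05 there were 3 antagonists (Sfrp4, Dkk3 and Dkk1), as were 8.31% of all genes. Sfrp4 had the smallest p (0.000422 unadjusted, adjusted p = 0.232). In vSSC it was at 3.80 and 4.52 FPKM in males, against 1.05 and 1.99 in females. In lbSSC it was at 6.15 and 4.80 FPKM in males, against 3.40 and 1.72 in females. At both sites each male library was above each female library, and the difference, male minus female, was 0.98 ± 0.19. Sex follows the replicate number at both sites, so a sex difference cannot be told apart from one between replicate numbers.

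Dkk1 differed between the sexes by 0.38 ± 0.17 (male minus female, adjusted p = 0.585 from limma) and Dkk3 by -0.45 ± 0.18 (adjusted p = 0.585). Dkk3 was at 3.18 and 5.88 FPKM in vSSC males, against 7.74 and 8.07 in vSSC females. For the interaction of site and sex, 0 of 10729 genes were called by limma, with 3.77% at an unadjusted p under 0.05 and no antagonist among them (the lowest unadjusted p was 0.126, for Dkk3).

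**Figure D5:**
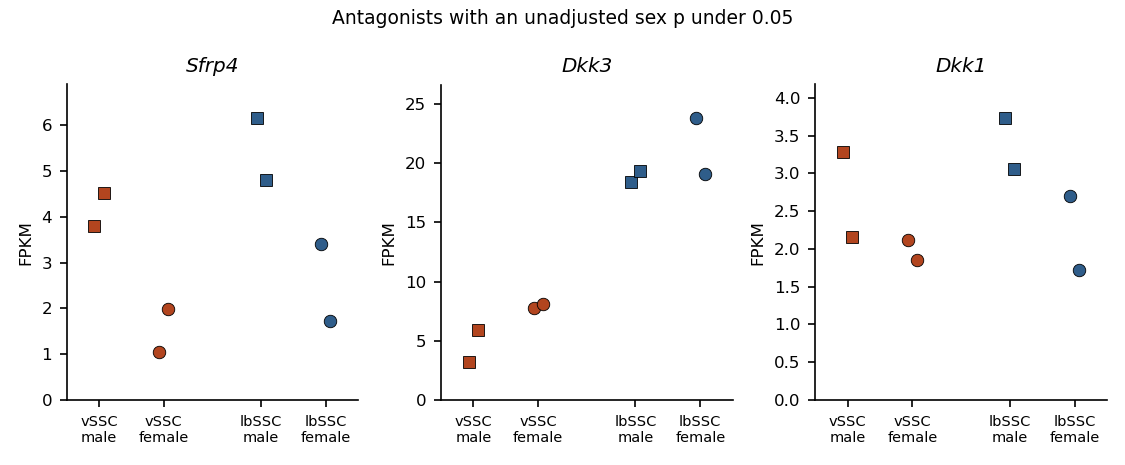
FPKM of the 3 antagonists with an unadjusted sex p under 0.05, male libraries (squares) left of female ones (circles) within vSSC (red) and lbSSC (blue), axes from 0. In Sfrp4 both male libraries of each site lie above both female ones, while no gene shown passed the adjusted threshold.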

How the data were processed

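Bulk RNA-seq of 4 vSSC and 4 lbSSC libraries was analysed. The labels' protocols name the RNeasy Mini Plus kit for RNA and SMART-Seq v4 with Nextera XT for libraries. Cufflinks 2.1.1, STAR 2.5.2, bcl2fastq 2.19 and build GRCm38 are listed per the submitters' processing notes, with no settings. The authors deposited FPKM per protein-coding gene, which is normalized to transcript length and library total, so a gain in abundant genes lowers all others. Depth is unknown, and precision rests on the replicates, whose number of animals the labels do not give, so a p-value covers only how these libraries vary. Deposited starts were raised by 1, after which 82.1% matched GENCODE M21 starts.

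Values were analysed as log2(FPKM + 1) with limma 3.58.1 in R 4.3.3 (variance trend, Benjamini-Hochberg over 10729 genes reaching an FPKM of 1 in 4 or more libraries). The site fit had no covariate, the sex fit had site as a covariate, and an interaction of site and sex was fitted. The procedure was tested on simulated data. The antagonists, the pathway and marker lists and the tests were chosen with earlier results of these data known. All 10 antagonists are described, and from each pathway list up to 3 called genes with the smallest p, the 2 closest patterns per antagonist called at 1 or more, and the sorting markers were to be named. Other listed genes, Axin2, Nkd1, Kremen1, Porcn, Wnt5b, Sost, Dkk4, Trabd2b and Sostdc1, were chosen after their values were seen. Listed genes Tiki1, Ccn4 and Acta1 matched no row used. The rest of the Schwann cell list is not reported here. Alternatives covered pseudocount, filter, scaling, variance model, covariates, replicate block and left-out libraries.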

Additional observations from a re-analysis of the deposited data

Results flagged for a closer look

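In groups of 4 libraries, a library was marked where its gap to the nearest other over the group's range exceeded Dixon's 95% critical value (20 groups examined, 3 marked, where chance marks about 1 in 20). In vSSC replicate 4, Sfrp1 was at 2.48 FPKM (gap 0.894 of the range) and Sfrp2 at 6.53 FPKM (0.878), each above the other vSSC libraries. The same library had the lowest Wif1, at 733 FPKM. Without it Sfrp1 differed between the sites by -3.45 ± 0.14 and Sfrp2 by -2.46 ± 0.17 on the log2 scale. In lbSSC replicate 3, Dkk3 was at 23.8 FPKM (0.833), and without it Dkk3 differed by -1.53 ± 0.24.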

How the results depend on the processing

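Of 187 recomputed site differences of the 9 tested antagonists, 182 kept their direction and their side of the threshold. In a fit that included the share of ribosomal protein genes Frzb (-0.51) and Dkk3 (-1.24) were no longer called, and 4 antagonists were called rather than 6. That share itself differed between the sites, so the fit separates the 2 poorly. Wif1, which was not called in any setting, was -0.071 after quantile normalization, -0.34 with that covariate and -0.12 without vSSC replicates 1 and 3. Without single libraries Wif1 ran between 0.05 and 0.37, Sfrp1 between -3.45 and -3.28 and Notum between 1.01 and 1.15. The causes were not tested.

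Counts over all genes moved more. Of 2518 genes called between the sites (1534 higher, 984 lower), the number was 624 with the ribosomal covariate (238 higher, 386 lower) and 1095 without vSSC replicates 1 and 3 (503 higher, 592 lower). Rescaling to one sum gave 1002 higher and 1363 lower, and a filter at an FPKM of 5, which tests fewer genes, 619 lower. Without single libraries there were 1534 to 2991 calls, 839 to 1878 higher. Calls were fewest without lbSSC replicate 3 (1534), lbSSC replicate 4 (1589), vSSC replicate 3 (1646) and vSSC replicate 1 (1673). As deposited, 60.9% of calls were higher in vSSC and the median of all genes was 0.08. These were 51.9% and 0.01 under median-of-ratios scaling, 50.0% and 0.03 under quantile scaling, and 42.4% and -0.04 under one sum. Genes called by sex were 5, or 3 with the filter at 5 and 13 with library weights. Genes called by interaction were 0, with 0 to 1 without single libraries.

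The summed level of all 10 antagonists, vSSC minus lbSSC, was -10.5 FPKM, -251 after quantile normalization and -228 without vSSC replicates 1 and 3. Without single libraries it ran between -110.0 and 118. For the 9 other than Wif1 it was -171 FPKM, -213 after quantile normalization and -203 after rescaling.

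Whether replicate numbers pair the libraries is not given by the labels, and the values do not settle it. Same-numbered libraries correlated at 0.26, -0.09, -0.06 and 0.44 in their deviations from the group means. Libraries with different numbers correlated at -0.36 to 0.21. Sex also follows the replicate number at both sites. With the replicate number as a block 3194 genes and 6 antagonists were called. Unknown depth limits the low values of Dkk2, Sfrp4 and Dkk1.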
